A study of Mus musculus with 2 samples.

Results

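Syndecans and glypicans are the cell-surface families of heparan sulfate proteoglycan, and all 10 of their genes in the mouse (Sdc1 to Sdc4 and Gpc1 to Gpc6) were followed here among the 31053 genes of the deposited tables. The genes were taken by name as whole families, with earlier results of these data known. Their levels were read in fibro/adipogenic progenitors (FAPs), the mesenchymal progenitors of skeletal muscle, sorted as 7AAD–Lin–Vcam–Sca1+ cells (Lin being CD45 and CD31) from limb muscles of 3-week-old C57BL/6 mice. One genotype was Bap1f/f and is labelled Bap1 WT. The other was Prx1-Cre;Bap1f/f and is labelled Bap1 ΔMPC, in which Cre from the limb mesenchyme driver Prx1 deletes Bap1, a deubiquitinase, in mesenchymal progenitors and not in FAPs alone. Both genotypes carry the floxed alleles, and the number of mice behind each library is not given in the labels.

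Each syndecan is a transmembrane core protein that carries heparan sulfate chains on its outer part and binds adaptor proteins with its short tail. Each glypican is a core protein held on the outer leaflet of the membrane by a glycosylphosphatidylinositol anchor, with its chains close to the membrane. The sulfated chains bind growth factors, morphogens, chemokines and matrix proteins, so these proteins act as co-receptors for FGF, Wnt, Hedgehog and BMP signals and as anchors to the matrix. In muscle, Sdc3 and Sdc4 are known from satellite cells, the muscle stem cells, and Gpc3 is known as an inhibitor of body growth.

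The data were 1 scRNA-Seq library per genotype. Differences between them were therefore not tested against a spread between replicates, and p-values are left out. The WT-labelled library held 4103 cells with 51015705 UMIs (unique molecular identifiers, each counting 1 captured transcript), and the ΔMPC-labelled library held 4378 cells with 49540066 UMIs. Median depths were 12232 and 11017.5 UMIs per cell. Bap1 itself had 897 UMIs (17.6 CPM, the UMIs per 1000000 UMIs of the library) in the WT-labelled library and 1072 UMIs (21.6 CPM) in the ΔMPC-labelled library. The counts of the deleted gene were thus not lower where the label says it was deleted, and because they do not show which exons were read, they do not check the labels. The libraries shared 5 cell barcodes. The counts of genes past 3-fold, and the ratios and shares of the syndecans and glypicans compared, were also computed without those cells.

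Besides all cells, a pair of FAP types was taken. Cells with at least 25 UMIs of Pi16, Sema3c, Anxa3 and Efemp1 together per 10000 UMIs are called Dpp4-type, and numbered 1050 (25.6%) in the WT-labelled and 1251 (28.6%) in the ΔMPC-labelled library. Cells below that score with at least 5 UMIs of Cxcl14 per 10000 are called Cxcl14-type, and numbered 569 (13.9%) and 1020 (23.3%). The remaining 2484 and 2107 cells passed neither gate, and 210 and 337 cells had a score between 20 and 30, near the limit. No syndecan or glypican was used for the gates. Of the markers that the gates did not use, the 6 for Dpp4-type cells together were at 6160 CPM in Dpp4-type and 738 CPM in Cxcl14-type cells of the WT-labelled library, and at 5720 and 1375 CPM in the ΔMPC-labelled library. The 9 for Cxcl14-type cells were at 1890 and 11433 CPM in the WT-labelled library and at 1740 and 7839 CPM in the ΔMPC-labelled library. Both lists thus followed the gates, with a smaller gap in the ΔMPC-labelled library. The gate genes themselves differed between the libraries, Pi16 being at 1243 and 863 CPM and Cxcl14 at 232 and 690.1 CPM over all cells, and their part in the values within a cell type was not tested. The FAP genes Pdgfra and Dcn were found in at least 84.1% of the cells of each library.

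The promoters of the genes with the largest difference between the libraries in level (Sdc3) and in the share of cells with a UMI (Gpc3) are printed here for reference. Each run is the 250 bases before the start site of RefSeq (GRCm38.p6), 5′ to 3′ on the strand of the gene, and capitals mark the GC box letters GGGCGG on either strand. Sdc3 is at chr4:130792537-130826319 on the plus strand and its window at chr4:130792287-130792536. Gpc3 is at chrX:52272426-52613950 on the minus strand and its window at chrX:52613975-52614224.
Sdc3: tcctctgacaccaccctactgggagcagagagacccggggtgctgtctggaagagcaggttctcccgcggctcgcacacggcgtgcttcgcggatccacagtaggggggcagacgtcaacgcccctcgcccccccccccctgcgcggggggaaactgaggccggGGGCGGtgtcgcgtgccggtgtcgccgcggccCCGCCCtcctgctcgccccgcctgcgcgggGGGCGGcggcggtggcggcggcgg
Gpc3: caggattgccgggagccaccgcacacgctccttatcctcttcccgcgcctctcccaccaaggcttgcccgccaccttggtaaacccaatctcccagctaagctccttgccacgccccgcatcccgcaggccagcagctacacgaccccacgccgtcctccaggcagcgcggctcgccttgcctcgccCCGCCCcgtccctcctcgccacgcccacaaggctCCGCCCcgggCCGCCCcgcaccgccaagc
Each window held 3 GC boxes and no TATAAA, with 32 CpG dinucleotides for Sdc3 and 25 for Gpc3 against a median of 6 over the 32851 promoters of the table. A GC box was found in 32.7% of all those windows and TATAAA in 12.4%. Of the 10 genes, 7 had a promoter in the table, and Sdc2, Gpc1 and Gpc6 did not. The windows of Sdc1, Sdc4, Gpc2 and Gpc4 overlapped the GENCODE gene and were not printed.

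On the chromosome, Gpc4 (chrX:52053021-52165252) and Gpc3 lie next to each other on the X chromosome, with 107 kb and no annotated gene between them. Gpc5 and Gpc6 lie as a similar pair on chromosome 14, with 400.1 kb and 1 noncoding gene between them. Genes annotated on the opposite strand of Sdc3 had at most 2 UMIs in either library, and those on the opposite strand of Gpc3 and of Gpc1 at most 14 and 18 UMIs each. Whether reads were counted by strand is not given in the sources used here.

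Of the 10 genes, 8 had enough UMIs to be compared, and these spanned a wide range. Because each 3′ UMI counts the end of 1 transcript, CPM does not grow with transcript length. How well the transcripts of each gene were captured was not examined, so the order given is that of counted UMIs. Over all cells of the WT-labelled library, the order from the highest was Gpc3 (456 CPM, 95% interval 450.5 to 462), Sdc2 (392, 386 to 397), Sdc4 (95.4), Gpc6 (83.7), Gpc4 (51.7), Sdc1 (14.6), Gpc1 (6.00) and Sdc3 (4.19). In the ΔMPC-labelled library Sdc2 came first (545 CPM, 539 to 552) and Gpc3 second (356, 351 to 362). Gpc6 (83.2 CPM, 80.7 to 85.8) and Sdc4 (79.0 CPM, 76.6 to 81.5) followed with overlapping intervals, and then came Gpc4 (39.0), Sdc1 (20.8), Sdc3 (15.8) and Gpc1 (11.3). All other neighbours in either order had intervals that did not overlap. The intervals of levels are exact Poisson intervals and, like all intervals given here, hold counting error alone. Gpc2, a glypican known from neurons, had 0 UMIs in either library, which, at 3 counts of the total, allows a share of cells with a UMI of up to 0.0731% of the 4103 and up to 0.0685% of the 4378 cells and sets no limit on cells that express it. Gpc5 had 1 UMI in the WT-labelled and 2 UMIs in the ΔMPC-labelled library and was not compared.

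**Figure D1:**
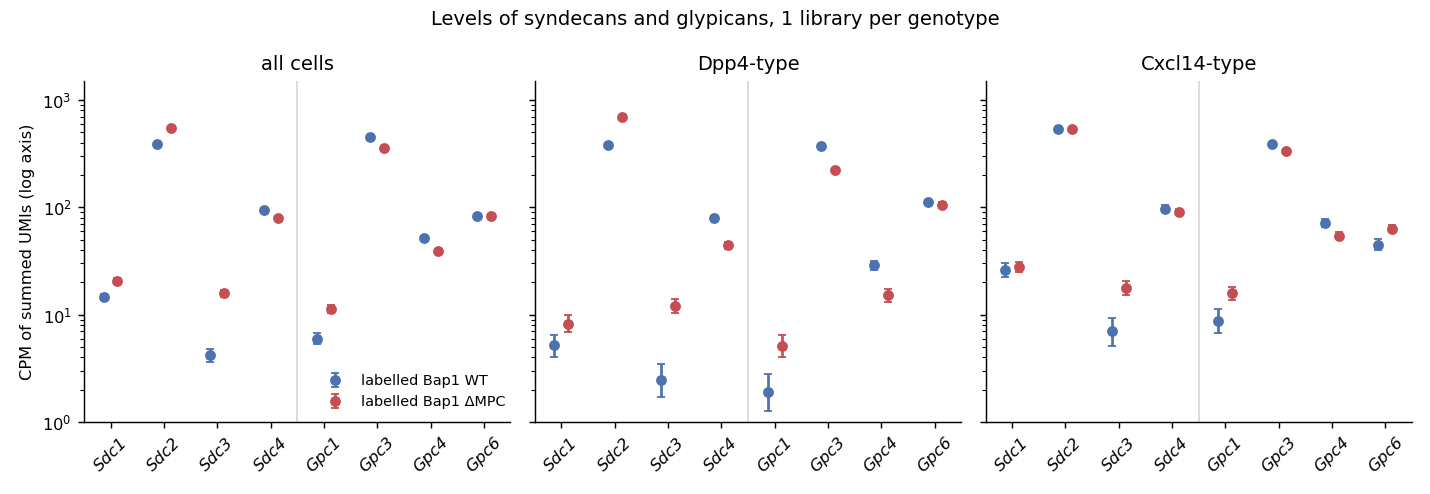
Level of each gene as CPM of summed UMIs on a log axis, over all cells, Dpp4-type cells and Cxcl14-type cells, with 1 point per library (blue, labelled Bap1 WT; red, labelled Bap1 ΔMPC). Error bars are exact Poisson 95% intervals, which are smaller than the points for the abundant genes. Sdc2 and Gpc3 are the most abundant in every panel, and the Sdc3 points are the farthest apart in every panel.

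Between the libraries, only Sdc3 among the 8 genes compared differed by more than 3-fold, the fold used in the methods of the study, and it did so over all cells and in Dpp4-type cells but not in Cxcl14-type cells. Over all cells, 2.56% of the 11761 genes tested differed that far, 1.45% higher and 1.11% lower in the ΔMPC-labelled library, against 1 of 8 here. In Dpp4-type cells 2.69% of 11599 genes did (1.47% higher and 1.22% lower), against 1 of 8. In Cxcl14-type cells 4.15% of 11649 genes did (2.64% higher and 1.52% lower), against 0 of 8. With 8 genes, a single gene past the fold is not a result about the family. The sizes of the differences, in either direction, had a median of 0.85 on the log2 scale for the 8 genes in Dpp4-type cells, against 0.24 for all genes tested. In Cxcl14-type cells the medians were 0.31 and 0.27, and over all cells 0.44 and 0.22. The median of the signed ratios over all genes lay slightly above 0, at 0.10 over all cells, 0.07 in Dpp4-type cells and 0.07 in Cxcl14-type cells.

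**Figure D2:**
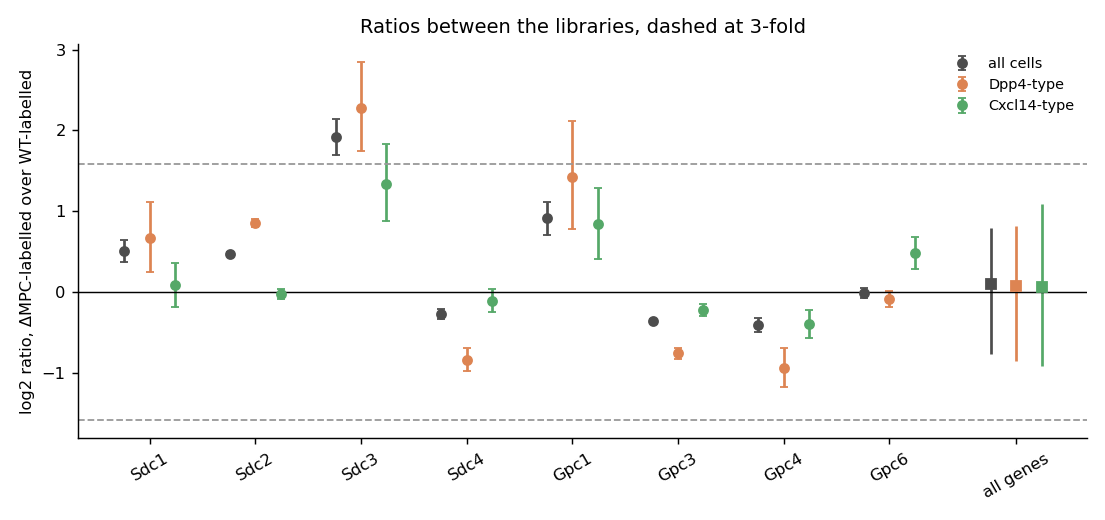
Log2 ratio of CPM, library labelled Bap1 ΔMPC over library labelled Bap1 WT, for each of the 8 genes compared over all cells (grey), Dpp4-type (orange) and Cxcl14-type cells (green), with 95% counting intervals. The squares at the right give the median of all genes tested and the bars their 5th to 95th percentiles, and the dashed lines mark 3-fold. In 7 genes the orange point lies farther from 0 than the green point, and in Gpc6 it does not. For Gpc1 the orange ratio minus the green ratio was 0.58, with a counting interval (-0.18 to 1.35) that included 0.

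Sdc2, the most abundant syndecan of these cells and known as a partner of fibronectin in matrix assembly, was higher in the ΔMPC-labelled library in Dpp4-type cells and equal within counting error in Cxcl14-type cells. In Dpp4-type cells it was at 380 CPM (370 to 391) in the WT-labelled and 689 CPM (676 to 702) in the ΔMPC-labelled library, a log2 ratio of 0.86 (0.81 to 0.91). In Cxcl14-type cells it was at 538 and 531 CPM, a log2 ratio of -0.02 (-0.08 to 0.04). The log2 ratio was thus 0.88 larger in Dpp4-type cells (counting interval 0.80 to 0.95). The order of the cell types turned with it. Sdc2 was lower in Dpp4-type than in Cxcl14-type cells of the WT-labelled library (log2 ratio -0.50, -0.56 to -0.44) and higher in those of the ΔMPC-labelled library (0.38, 0.33 to 0.42). Nearly every cell carried the transcript, with a UMI in 94.7% and 96.7% of Dpp4-type cells, and the UMIs per positive cell were 5.40 and 8.41.

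Sdc3, a syndecan with a long outer part that is best known from neurons and satellite cells, was scarce in the WT-labelled library and had the largest ratio of the family. In Dpp4-type cells it had 35 UMIs (2.48 CPM, 1.73 to 3.45) in the WT-labelled and 178 UMIs (12.1 CPM, 10.3 to 14.0) in the ΔMPC-labelled library. The ratio was 4.86-fold (3.37 to 7.20), and 0.871% of all genes tested there differed as far. In Cxcl14-type cells the values were 7.01 and 17.8 CPM (2.53-fold, 1.84 to 3.56), and over all cells 4.19 and 15.8 CPM (3.77-fold, 3.24 to 4.40). The ratio in the cells that passed neither gate was 3.94-fold (3.23 to 4.83). A UMI of Sdc3 was found in 4.29% of the WT-labelled and 13.6% of the ΔMPC-labelled cells, and the UMIs per positive cell were 1.22 and 1.31. With every cell thinned to 5000 UMIs, which left out 120 and 210 shallower cells, the shares were 1.91% and 6.86%.

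The cells were sorted and filtered as FAPs, so the share that free RNA gives to cells without the gene could not be read from another cell type. Genes of other cells give a guide to the presence of free RNA. They set no limit for another gene, because the free RNA of a gene depends on its own abundance. The myofiber gene Acta1 had a UMI in 12.5% of the WT-labelled and 6.74% of the ΔMPC-labelled cells, and the red-cell gene Hbb-bs in 6.17% and 8.34%. In Dpp4-type cells these shares were 8.95% and 8.39% for Acta1 and 6.67% and 7.99% for Hbb-bs. The Sdc3 share in the WT-labelled library lay below both guides over all cells and in Dpp4-type cells (2.95%). Low expression and free RNA cannot be told apart there, so the share is not read as expression or as its absence. In the ΔMPC-labelled library the Sdc3 share lay above both over all cells, at 13.6% (12.6 to 14.7). In Dpp4-type cells there it was 11.3% (9.57 to 13.2), again above both. That interval overlapped those of Acta1 (6.92 to 10.1) and Hbb-bs (6.55 to 9.64), and overlap alone does not show that the shares are alike. Whether the share exceeded the guides beyond counting error was not tested.

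Of the 5 listed markers of muscle stem cells, Pax7, Myf5 and Myod1 had 0 UMIs in either library. The methods state that cells high in markers of other cell types were removed before deposit. Des was at 11.7 and 29.3 CPM in Dpp4-type cells and at 6.86 and 3.55 CPM in Cxcl14-type cells, and Chodl had 216 and 209 UMIs in all. Des was thus higher beside Sdc3 in Dpp4-type cells but not in Cxcl14-type cells, and its part in the Sdc3 values was not tested.

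Markers of other cell types and of the cell cycle also differed between the libraries. The 5 adipocyte markers together were at 0.216 CPM in the WT-labelled and 6.06 CPM in the ΔMPC-labelled library, and reached 10.8 CPM in Cxcl14-type but 0.677 CPM in Dpp4-type cells of the latter. The 5 immune markers together were at 2.90 and 7.71 CPM with Ptprc and Adgre1 at 0, the 5 tendon markers at 78.2 and 117 CPM, and the 5 cycling markers at 32.8 and 60.4 CPM. The 5 Schwann cell markers were at 4.70 and 4.22 CPM and the 4 cartilage markers at 0.157 and 1.88 CPM. Without the 947 and 1060 cells that held a UMI of an immune, adipocyte, Schwann, cartilage or tendon marker, the log2 ratio of Sdc3 over all cells was 1.62 against 1.91 with them, and in Dpp4-type cells 2.35 against 2.28. Without the 77 and 147 cells with 2 or more UMIs of the cycling markers, it was 1.96 over all cells and 2.43 in Dpp4-type cells.

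Sdc4, the syndecan found at focal adhesions, was lower in Dpp4-type cells of the ΔMPC-labelled library. Its level there was 44.2 CPM (40.8 to 47.7) against 78.7 CPM (74.1 to 83.5) in the WT-labelled library, a log2 ratio of -0.83 (-0.98 to -0.69). In Cxcl14-type cells the levels were 97.1 and 90.3 CPM, with a log2 ratio of -0.10 whose interval (-0.25 to 0.04) included 0. The share of Dpp4-type cells with a UMI was 54.5% and 32.3%, or 31.3% and 16.6% after thinning.

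Sdc1, known mainly from epithelia and plasma cells, had the widest gap between the cell types in the WT-labelled library, a log2 ratio of -2.34 (-2.75 to -1.93). The interval of Gpc1 (-2.20, -2.92 to -1.52) overlapped it, so their order is not settled. In the WT-labelled library Sdc1 was at 5.17 CPM in Dpp4-type and 26.1 CPM in Cxcl14-type cells, which is 5.05-fold lower in Dpp4-type cells. In the ΔMPC-labelled library Sdc1 was at 8.26 and 27.8 CPM, which is 3.36-fold lower. There the gap of Gpc4 was 3.601-fold, with an interval that overlapped that of Sdc1. Between the libraries the log2 ratio of Sdc1 was 0.68 (0.25 to 1.11) in Dpp4-type and 0.09 (-0.18 to 0.37) in Cxcl14-type cells. The share of Dpp4-type cells with a UMI was 6.19% and 8.71%, not above Acta1 and Hbb-bs beyond counting error. Low expression and free RNA cannot be told apart there, so the ratio is not read as a difference in expression.

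Gpc3, a glypican that binds Hedgehog and Wnt proteins, differed between the libraries less in its level than in how many cells carried it. Over all cells its level was 456 CPM in the WT-labelled and 356 CPM in the ΔMPC-labelled library, a log2 ratio of -0.36 (-0.38 to -0.33). A UMI of Gpc3 was found in 94.3% (93.6 to 95.03) of the WT-labelled cells and 65.8% (64.3 to 67.2) of the ΔMPC-labelled cells, with exact Clopper-Pearson intervals. The cells that carried it held 6.01 and 6.13 UMIs on average. Over all cells, the lower level in the ΔMPC-labelled library thus came with fewer positive cells and not with fewer UMIs in a positive cell. In Dpp4-type cells the UMIs per positive cell were 5.36 and 4.77, and in Cxcl14-type cells 4.92 and 5.40. These values are not at equal depth, since Dpp4-type cells had a median of 13635 UMIs in the WT-labelled and 11661 in the ΔMPC-labelled library. After thinning, the UMIs per positive cell were 2.49 and 2.58 in Dpp4-type cells, 2.63 and 3.08 in Cxcl14-type cells, and 2.90 and 3.41 over all cells. The lower value in Dpp4-type cells of the ΔMPC-labelled library was thus not seen at equal depth.

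The gap in the share of cells was present at equal depth and in each cell type. After thinning, 80.5% and 52.5% of all cells, 76.2% and 40.8% of Dpp4-type cells and 78.5% and 54.6% of Cxcl14-type cells had a UMI of Gpc3. Of the 916 genes found in 50% or more of the thinned WT-labelled cells, 8 (0.873%), Gpc3 included, had a share that was lower in the ΔMPC-labelled library by as many percentage points (28.0), and the median difference of these genes was 0.431 points upward. At the other end, cells with 15 or more Gpc3 UMIs made up 0.0251% of the thinned WT-labelled and 0.792% of the thinned ΔMPC-labelled cells. The variance of the UMIs per thinned cell was 1.93 times their mean in the WT-labelled and 4.62 times in the ΔMPC-labelled library, against 1.78 and 2.64 times for Sdc2. Gpc3 was thus spread more unevenly over the cells of the ΔMPC-labelled library in both directions.

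**Figure D3:**
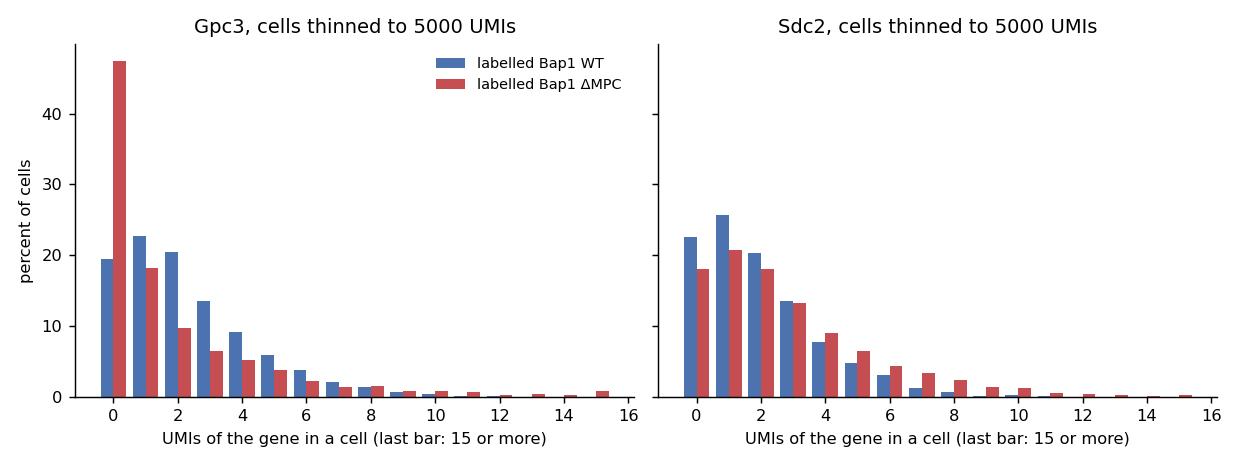
Percent of cells by the number of UMIs of Gpc3 (left) or Sdc2 (right) in the cell, after every cell was thinned to 5000 UMIs, in 3983 cells of the library labelled Bap1 WT (blue) and 4168 cells labelled Bap1 ΔMPC (red). For Gpc3, 19.5% of the WT-labelled and 47.5% of the ΔMPC-labelled cells held none. For Sdc2 the corresponding shares were 22.6% and 18.1%.

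Cells with and without Gpc3 also differed in other members. This split was chosen after the shares were seen, and the cells without Gpc3 were shallower (median 10526 against 11304 UMIs in the ΔMPC-labelled library). In that library, Sdc2 was at 744 CPM in the 1499 cells without a Gpc3 UMI and 449.7 CPM in the 2879 cells with one, a log2 ratio of 0.73 (0.69 to 0.76). The difference was of like size within Dpp4-type (0.72) and within Cxcl14-type cells (0.70). Gpc4 was lower in the cells without Gpc3, at 29.1 against 43.7 CPM (log2 ratio -0.59, -0.74 to -0.44), and Gpc6 was lower as well, at 68.0 against 90.6 CPM (-0.41, -0.51 to -0.31). Sdc3 was higher in the cells without Gpc3, at 20.6 against 13.5 CPM (0.61, 0.40 to 0.82). The intervals of Sdc1, Sdc4 and Gpc1 over all cells included 0. Within Cxcl14-type cells Sdc1 (0.54, 0.20 to 0.88) and Gpc1 (0.53, 0.06 to 0.98) were higher in those without Gpc3. Within Dpp4-type cells the intervals of Sdc1 and Gpc1 included 0. Sdc4 was lower in those without Gpc3 within Dpp4-type cells (-0.45, -0.69 to -0.21) and higher within Cxcl14-type cells (0.33, 0.14 to 0.52). In the WT-labelled library 232 cells lacked a Gpc3 UMI, and there Sdc2 was at 505 against 386 CPM (0.39, 0.30 to 0.47), while the intervals for Gpc4 and Gpc6 included 0, as did that of Sdc2 within the Cxcl14-type cells (0.07, -0.13 to 0.27). Within Dpp4-type cells of that library Gpc4 was lower in the 63 cells without Gpc3 (-1.03, -2.10 to -0.13), and over all its cells Gpc1 was higher in those without Gpc3 (0.88, 0.24 to 1.46). Across thinned cells, the Pearson correlation of Sdc2 and Gpc3 was -0.13 in the 3983 WT-labelled and -0.30 in the 4168 ΔMPC-labelled cells, a description over cells that share a library.

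Gpc4, the X-linked neighbour of Gpc3 and a glypican known for its part in synapse formation, was also lower in the ΔMPC-labelled library. In Dpp4-type cells it was at 29.0 CPM (26.2 to 31.9) in the WT-labelled and 15.2 CPM (13.2 to 17.3) in the ΔMPC-labelled library, a log2 ratio of -0.93 (-1.18 to -0.70). In Cxcl14-type cells it was at 71.6 and 54.6 CPM, a log2 ratio of -0.39 (-0.57 to -0.22). For Gpc3 the same ratios were -0.76 (-0.82 to -0.69) and -0.22 (-0.30 to -0.15). Both X-linked glypicans were therefore lower in each cell type and by more in Dpp4-type cells.

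Gpc1, a broadly expressed glypican, was scarce, and its UMIs were more frequent in the ΔMPC-labelled library. In Dpp4-type cells it had 27 UMIs (1.91 CPM) and 76 UMIs (5.15 CPM), a log2 ratio of 1.43 (0.78 to 2.12). In Cxcl14-type cells it was at 8.80 and 15.8 CPM (0.84, 0.41 to 1.29). In Dpp4-type cells 2.48% and 5.52% of cells had a UMI, below Acta1 and Hbb-bs in each library. Low expression and free RNA cannot be told apart there, so neither share is read as expression or as its absence. In Cxcl14-type cells the share was 8.96% in the WT-labelled library, below Acta1 (17.2%) and above Hbb-bs (4.75%), and 14.5% in the ΔMPC-labelled library, above both (6.86% and 7.25%). The ratio in Dpp4-type cells rested on few UMIs and depended on the gate, at 0.62 with the score limit at 15 and 2.25 with the limit at 40, where it passed 3-fold.

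Gpc6, which promotes synapse formation as Gpc4 does, was the only member higher in Dpp4-type than in Cxcl14-type cells of the WT-labelled library. Its levels there were 112 and 45.1 CPM, and in the ΔMPC-labelled library 106 and 63.1 CPM. Between the libraries it was equal within counting error in Dpp4-type cells (log2 ratio -0.08, -0.18 to 0.02) and higher in Cxcl14-type cells of the ΔMPC-labelled library (0.48, 0.29 to 0.68). Its gap between the cell types was thus 2.49-fold in the WT-labelled and 1.68-fold in the ΔMPC-labelled library.

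Between the cell types, 2 of the 8 genes (Sdc1 and Gpc1, both lower in Dpp4-type cells) passed 3-fold in the WT-labelled library, where 8.8% of 11603 genes did. In the ΔMPC-labelled library 3 of 8 (Sdc1, Gpc1 and Gpc4, all lower in Dpp4-type cells) did, where 8.83% of 11710 genes did. Under other settings the ratio of Dpp4-type over Cxcl14-type cells ranged from 0.1112 to 0.4531 for Gpc1 in the WT-labelled library. In the ΔMPC-labelled library it ranged from 0.2875 to 0.3486 for Gpc1 and from 0.2873 to 0.3393 for Sdc1. These calls thus did not hold in every setting, while those of Sdc1 in the WT-labelled and Gpc4 in the ΔMPC-labelled library did. Sdc3 in the WT-labelled library ranged from 0.3092 to 0.5298 and passed 3-fold at its lowest. In either library the gates are limits on scores that vary gradually, so levels were also read along the Dpp4 score. In the WT-labelled library, Gpc4 was at 58.2 CPM in cells with a score under 5 and 24.9 CPM in cells with a score of 50 or more, and Gpc6 at 70.6 and 127 CPM. In the ΔMPC-labelled library, Gpc3 was at 455 CPM in cells with a score under 5, close to the 496 CPM of the WT-labelled library, and at 188 CPM in cells with a score of 50 or more, against 350.3 CPM. Sdc2 went the other way, with 433 against 370.5 CPM in cells with a score under 5 and 674 against 349.7 CPM at 50 or more.

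**Figure D4:**
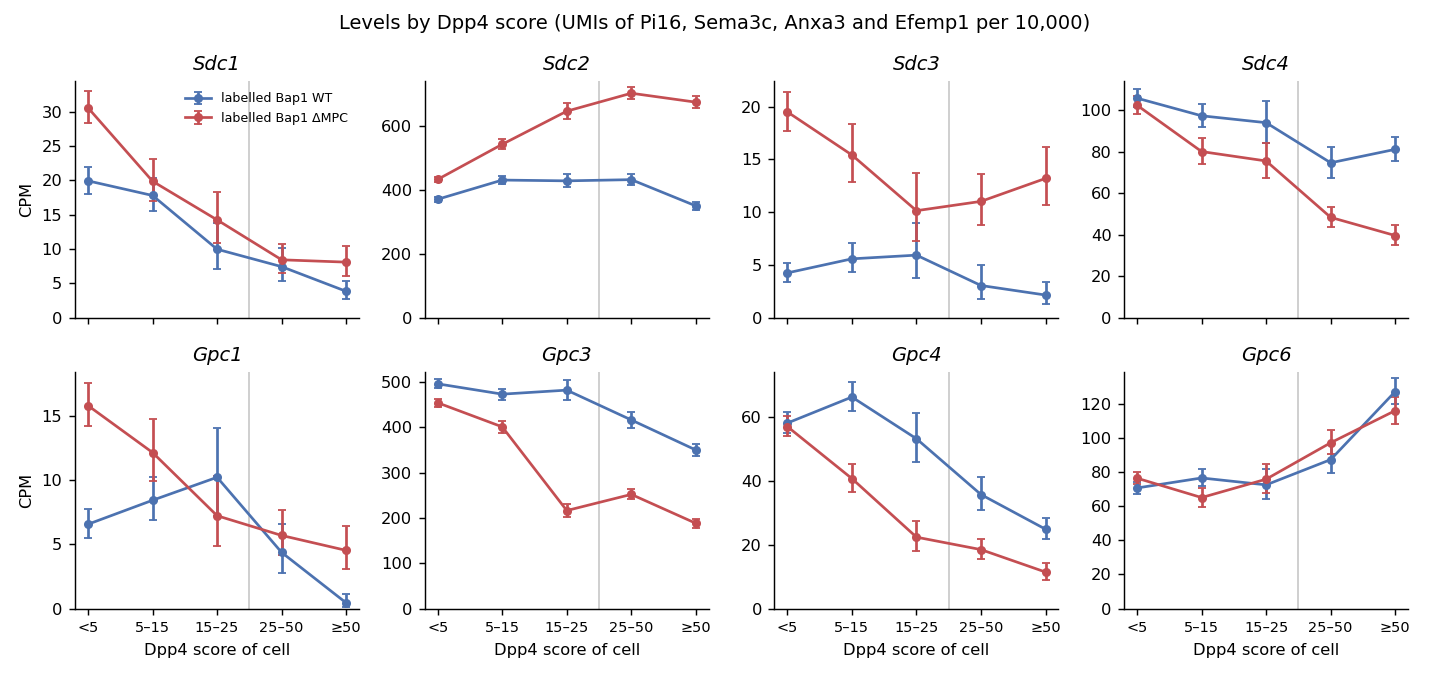
CPM of each gene in cells binned by their Dpp4 score, the UMIs of Pi16, Sema3c, Anxa3 and Efemp1 per 10000, in the library labelled Bap1 WT (blue) and the one labelled Bap1 ΔMPC (red), with exact Poisson 95% intervals and a grey line at the gate of 25. At a score of 50 or more the intervals of the libraries overlap for Gpc6 and for no other gene shown. Sdc3 is there at 2.14 and 13.2 CPM and Gpc1 at 0.451 and 4.54 CPM.

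Summed over the 10 genes, the level differed less between the libraries than its make-up. The sum was 985 CPM in Dpp4-type cells of the WT-labelled and 1102 CPM in those of the ΔMPC-labelled library, a log2 ratio of 0.16 (0.13 to 0.19). In Cxcl14-type cells it was 1187 and 1136 CPM (-0.06, -0.10 to -0.02). Syndecans made up 47.4% (46.6 to 48.2) of these UMIs in Dpp4-type cells of the WT-labelled library and 68.4% (67.7 to 69.1) in those of the ΔMPC-labelled library. In Cxcl14-type cells their share was 56.3% and 58.7%. Most of the difference in Dpp4-type cells lay in a pair of genes, since Sdc2 went from 38.6% to 62.5% of the UMIs and Gpc3 from 38.1% to 20.1%.

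**Figure D5:**
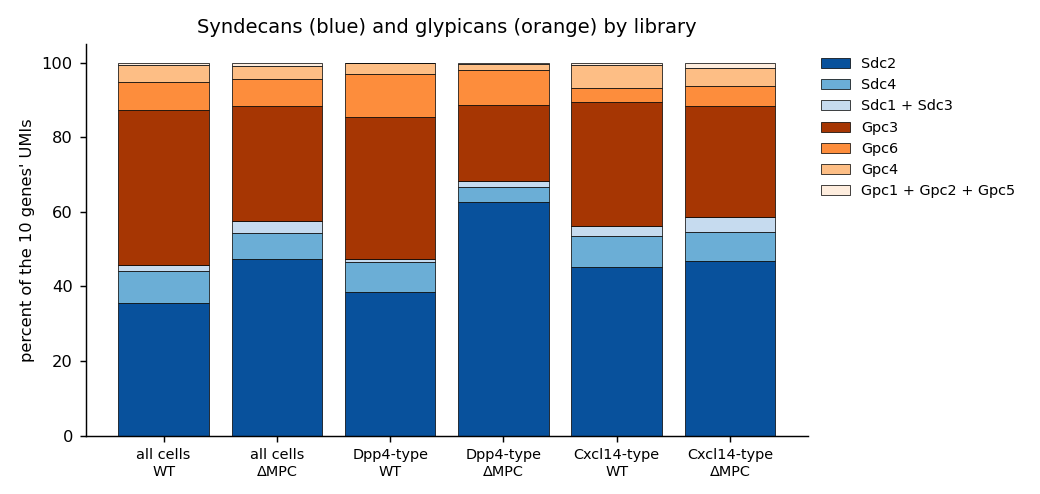
Share of each gene in the UMIs of the 10 genes together, as stacked percent, with 1 bar per library and cell group, syndecans in blue and glypicans in orange. Syndecans reach 68.4% in Dpp4-type cells of the library labelled Bap1 ΔMPC and between 45.8% and 58.7% in the other bars.

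Likeness to other genes was measured as the correlation over single cells. Of 7597 genes with a UMI in at least 5% of the thinned cells of each library, Col1a1 (Pearson r 0.28 in the WT-labelled and 0.37 in the ΔMPC-labelled cells) and Col1a2 (0.28 and 0.34), the chains of type I collagen, were most like Gpc3. Ret, a receptor for GDNF-family ligands (0.29 and 0.31), and Pcsk6, a proprotein convertase (0.22 and 0.38), were most like Sdc2. The pairs for Sdc1 (Bgn, Col15a1), Sdc4 (Gadd45b, Lgals3), Gpc4 (Clu, 1500015O10Rik) and Gpc6 (Pcolce2, Sfrp2) had a mean r of 0.16 or less. Sdc3 and Gpc1 were found in too few cells to be compared so. These correlations are over cells of 1 library each and are descriptions. Col1a1 itself was at 21266 CPM in the WT-labelled and 9859 CPM in the ΔMPC-labelled library, and its part in the Gpc3 values was not tested.

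The chains of these core proteins are made in the Golgi by enzymes that add a linker, polymerize the chain and sulfate it, and are trimmed outside the cell. Of 75 genes listed for the pathway beside the members, 59 could be compared. In Dpp4-type cells 1 was more than 3-fold higher and 2 lower in the ΔMPC-labelled library, in Cxcl14-type cells 4 were higher and 2 lower, and over all cells 1 was higher and 3 lower. Of all genes tested, 2.69%, 4.15% and 2.56% passed in these groups in either direction. The median size of the log2 ratio of these 59 genes was 0.37 in Dpp4-type and 0.42 in Cxcl14-type cells, against 0.24 and 0.27 for all genes tested.

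None of the 6 linker genes and none of the 4 polymerization genes compared passed 3-fold in any cell group. B3gat3 and Fam20b, the most abundant of the linker enzymes, had log2 ratios of 0.24 (0.07 to 0.40) and 0.11 (-0.11 to 0.32) in Dpp4-type cells. Of the polymerases, Ext1 was at 164 and 127 CPM and Ext2 at 79.6 and 75.4 CPM. The median log2 ratio in Dpp4-type cells was 0.18 for the linker and -0.08 for the polymerization genes.

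Of 16 sulfation and epimerization genes, 9 could be compared, and Hs3st3b1, a 3-O-sulfotransferase that acts late on the chain, was the only one past 3-fold. It had 83 UMIs (5.88 CPM) in Dpp4-type cells of the WT-labelled and 21 UMIs (1.42 CPM) in those of the ΔMPC-labelled library, a log2 ratio of -2.05 (-2.81 to -1.34). In Cxcl14-type cells it had 15 and 8 UMIs (-1.66, -3.10 to -0.33). The epimerase Glce was at 100.03 and 85.1 CPM in Dpp4-type cells, and the N-sulfating Ndst1 at 44.5 and 42.9 CPM. In Dpp4-type cells 8 of the 9 ratios were below 0, where 41.0% of all genes tested were, and the intervals of Ndst1, Hs2st1 and Hs6st2 among the 8 included 0.

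The extracellular sulfatases remove 6-O-sulfate from finished chains. None of the 3 genes compared for such editing, of 4 listed, passed 3-fold. Sulf1 was at 330.5 CPM in Dpp4-type cells of the WT-labelled and 447 CPM in those of the ΔMPC-labelled library, and at 147 and 141 CPM in Cxcl14-type cells. Sulf2 was at 91.0 and 123 CPM in Dpp4-type cells and at 162 and 81.5 CPM in Cxcl14-type cells (log2 ratio -0.99, -1.12 to -0.86). Both were thus higher in Dpp4-type cells of the ΔMPC-labelled library, and Sulf2 was lower in its Cxcl14-type cells.

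None of the 5 genes compared for release of core proteins from the surface passed 3-fold. The matrix metalloproteinase Mmp2 was at 1029.9 and 848 CPM and the membrane-bound Mmp14 at 226 and 301 CPM in Dpp4-type cells. None of the 6 genes compared for cytoplasmic partners of syndecans did either, and their ratios in Dpp4-type cells were all above 0, with a median log2 ratio of 0.34 against 0.07 for all genes, 58.98% of which were above 0. The interval of Prkca among the 6 included 0 there (-0.12 to 0.17). Over all cells 4 of the 6 ratios were above 0, and in Cxcl14-type cells 5 were. In Dpp4-type cells syntenin-1 (Sdcbp), which binds the tails of all syndecans, was at 150.1 and 187 CPM, and Pdcd6ip (Alix), its partner in exosome formation, at 108 and 145 CPM.

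Of the other core proteins that carry heparan sulfate, 10 of 11 could be compared. None passed 3-fold in Dpp4-type cells, and Agrn, Srgn and Spock3 were more than 3-fold higher in Cxcl14-type cells of the ΔMPC-labelled library. Agrn, known for clustering acetylcholine receptors at the neuromuscular junction, had 21 UMIs (3.13 CPM) and 200 UMIs (17.8 CPM) there, a log2 ratio of 2.50 (1.85 to 3.23), and 5.24 and 15.4 CPM in Dpp4-type cells. Srgn, the core protein of secretory granules of blood cells, had 16 and 89 UMIs in Cxcl14-type cells (1.73, 0.95 to 2.60), beside the immune markers there at 1.19 and 11.7 CPM, and their part in it was not tested. Spock3 had 1 and 22 UMIs there (3.71, 1.08 to 9.08), and in Dpp4-type cells 15.9 and 5.96 CPM. Perlecan (Hspg2) was at 536 and 737 CPM and betaglycan (Tgfbr3) at 189.7 and 229.6 CPM in Dpp4-type cells.

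Of 18 heparin-binding ligands, 16 could be compared. Rspo3, an enhancer of Wnt signaling, was more than 3-fold lower in both cell types, at 27.4 and 8.46 CPM in Dpp4-type cells (log2 ratio -1.70, -2.00 to -1.40) and 30.1 and 9.33 CPM in Cxcl14-type cells (-1.69, -2.05 to -1.35). The matrix protein tenascin-C (Tnc) was more than 3-fold higher in both, with 11 and 41 UMIs in Dpp4-type cells (1.83, 0.85 to 2.94) and 53 and 280 UMIs in Cxcl14-type cells (1.65, 1.23 to 2.11). Tnc is also a gene of tendon cells, whose markers were at 43.3 and 82.3 CPM in Cxcl14-type cells, and their part in it was not tested. Fibronectin (Fn1), the ligand with the most UMIs, was at 4868 and 3414 CPM in Dpp4-type cells, and thrombospondin-1 (Thbs1) at 61.1 and 93.6 CPM.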

How the data were processed

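FAPs of 1 library per genotype were measured with the 10x Genomics Chromium Single Cell 3p v3.1 kit. The authors deposited raw UMI counts, a matrix of genes by cells. The submitters' processing notes name Cell Ranger 3.1.0, Seurat 3.2.1 and the build mm10. The methods state that cells were filtered for quality and doublets and that non-FAPs were removed, and the thresholds are not given in the sources used here. Every deposited cell had 1501 to 4998 detected genes and under 5% mitochondrial UMIs. All were kept and no doublet caller was run.

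UMIs were summed per library and cell group and scaled to CPM. A gene entered if its average log-normalized value was above 0.01 and its UMIs in the cell group, summed across the libraries, reached 20. In ratios, a library at 0 took the value 3 as its floor. The 95% intervals are exact Poisson ones for levels, exact conditional binomial for ratios and Clopper-Pearson for shares. They cover counting error only. Differences of log2 ratios between cell types have Wald intervals. Called means past 3-fold, and no test was made with 1 library per genotype. The ratios were tested on simulated data. Gene models came from GENCODE M21 (GRCm38) and promoters from RefSeq. The 10 genes, the pathway lists and the gates were chosen with earlier results of these data known. Named beside the members are Bap1, listed genes past 3-fold in Dpp4-type or Cxcl14-type cells, the 2 genes with the most UMIs of each list, and the 2 genes most like each member. The listed Ccn2 was matched as Ctgf. Python 3.11.15, numpy 2.4.6, scipy 1.17.1, pandas 2.3.3 and edgeR 4.0.16 (TMM factors only) in R 4.3.3 were used.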

Additional observations from a re-analysis of the deposited data

Results flagged for a closer look

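The ratio between the libraries had opposite signs in Dpp4-type and Cxcl14-type cells for Sdc2 and Gpc6. For Sdc2 the log2 ratio was 0.86 in Dpp4-type and -0.02 in Cxcl14-type cells, a difference of 0.88. For Gpc6 it was -0.08 and 0.48, a difference of -0.57. With 1 library per genotype, neither difference was tested, and in each gene 1 of the ratios had a counting interval that included 0. Under other settings these ratios lay between -0.08 and 0.03 for Sdc2 in Cxcl14-type cells and between -0.16 and 0.01 for Gpc6 in Dpp4-type cells.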

How the results depend on the processing

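No paired analysis was possible because there was only 1 library per genotype. With the score limit for Dpp4-type cells at 40, with cells thinned to 5000 UMIs, or with a fold of 2, 2 members instead of 1 passed in Dpp4-type cells, with Gpc1 joining Sdc3 in each. With a fold of 2, 1 member instead of 0 passed in Cxcl14-type cells. Genes past the fold numbered 301 over all cells, 312 in Dpp4-type and 484 in Cxcl14-type cells, against 780, 819 and 1162 with a fold of 2. They numbered 776 over all cells with no filter on average expression, and with a minimum of 100 UMIs 163 in Dpp4-type and 231 in Cxcl14-type cells. In all 8 settings for all cells and 10 settings for Dpp4-type cells, Sdc3 stayed past 3-fold, at log2 ratios of 1.62 to 1.96 and 1.82 to 2.43. No ratio whose interval excluded 0 changed sign in these settings. Of the members' ratios between the libraries under other settings, 205 stayed within the main counting interval and 35 moved outside it. For ratios between the cell types these numbers were 162 and 30, and for shares of cells 269 and 67. Other scalings moved every ratio between the libraries by at most 0.10 on the log2 scale. The Gpc3 share in Dpp4-type cells ranged from 76.2% to 94.3% in the WT-labelled and from 40.8% to 56.0% in the ΔMPC-labelled library, with thinning at the low end of each. The settings that left out cells with markers of other cell types or of the cell cycle were chosen after seeing the data, as were those that left out cells for the shares. Without the cells with other markers, Gpc3 was found in 93.7% and 53.9% of Dpp4-type cells. Depth limits Gpc1 and Sdc3 most, with 27 and 35 UMIs in Dpp4-type cells of the WT-labelled library.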
